A study of Mus musculus with 2 samples.

Results

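Costimulatory and checkpoint genes of T cells, 10 in all, were followed through the cells of the mediastinal lymph node, the node that drains the lung. They are Cd28, Cd40, Cd40lg, Cd80, Cd86, Icosl, Cd274, Pdcd1lg2, Lag3 and Tigit, taken by symbol, and all 10 were found once among the 31053 genes counted in each library. The 2 droplet libraries came from wild-type C57/B6J mice with ovalbumin (OVA)-induced asthma, 1 without and 1 with butyrate (C4, a short-chain fatty acid made by gut bacteria). Sensitization with 50 µg OVA on days 0 and 7 and challenge over days 14 to 16 were the same in both groups, and each library pooled 4 mice of 5 to 13 weeks of age. How and at what dose butyrate was given to these mice is not given in the labels. Both groups thus had asthma, and animals without it were not part of this comparison.

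After removal of low-quality cells and likely doublets, 8756 cells without and 7978 cells with butyrate remained, with medians of 5070.5 and 5640 unique molecular identifiers (UMIs, each a captured RNA molecule) per cell. The 2 libraries shared 25 cell barcodes. With 1 library per condition no test was possible, and the 95% intervals given here reflect counting error alone, so differences among mice lie outside them. Levels are UMIs of a gene per 1000000 UMIs of a class (CPM). The ratios with over without butyrate are log2 ratios, and a ratio is called past the fold at an absolute value of at least 0.5 with a pseudocount of 10 CPM, among genes with at least 50 UMIs over both libraries. Ratios printed with an interval have no pseudocount.

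A T cell needs a signal through its antigen receptor and a costimulatory signal. CD28 on the T cell receives the latter from CD80 and CD86 on antigen-presenting cells, and ICOS receives a related one from ICOS ligand (Icosl). Help to B cells runs the other way, from CD40 ligand on activated CD4+ T cells to CD40 on B cells and dendritic cells, and is needed for class switching, including that to IgE. The pathway is held in check by PD-L1 (Cd274) and PD-L2 (Pdcd1lg2), which bind PD-1, by LAG-3, which binds MHC class II, and by TIGIT, which binds the poliovirus receptor (Pvr).

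Cells were assigned by marker UMIs. CD4+ conventional T cells (909 without and 828 with butyrate), Foxp3+ T cells (148 and 145), CD8+ T cells (1568 and 1620), cycling T cells (103 and 70), B cells (4001 and 3795), cycling B cells (96 and 46) and myeloid cells (36 and 29) rested on Cd3e, Cd4, Cd8a, Foxp3, Cd79a, Mki67 and Lyz2. Dendritic-marker cells (25 and 49) and plasma-marker cells (36 and 10) were added as the other antigen-presenting and B-lineage cells of the node. T cell markers that did not enter the assignment fitted these labels: the summed T cell list (Cd2, Cd3d, Cd3g, Lck and Trac) stood at 3344 and 3229 CPM in CD4+ conventional T cells against 199.7 and 195 CPM in B cells. The small class with NK markers still held 1754 and 1029 CPM of the T cell list and is not described further.

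**Figure D1:**
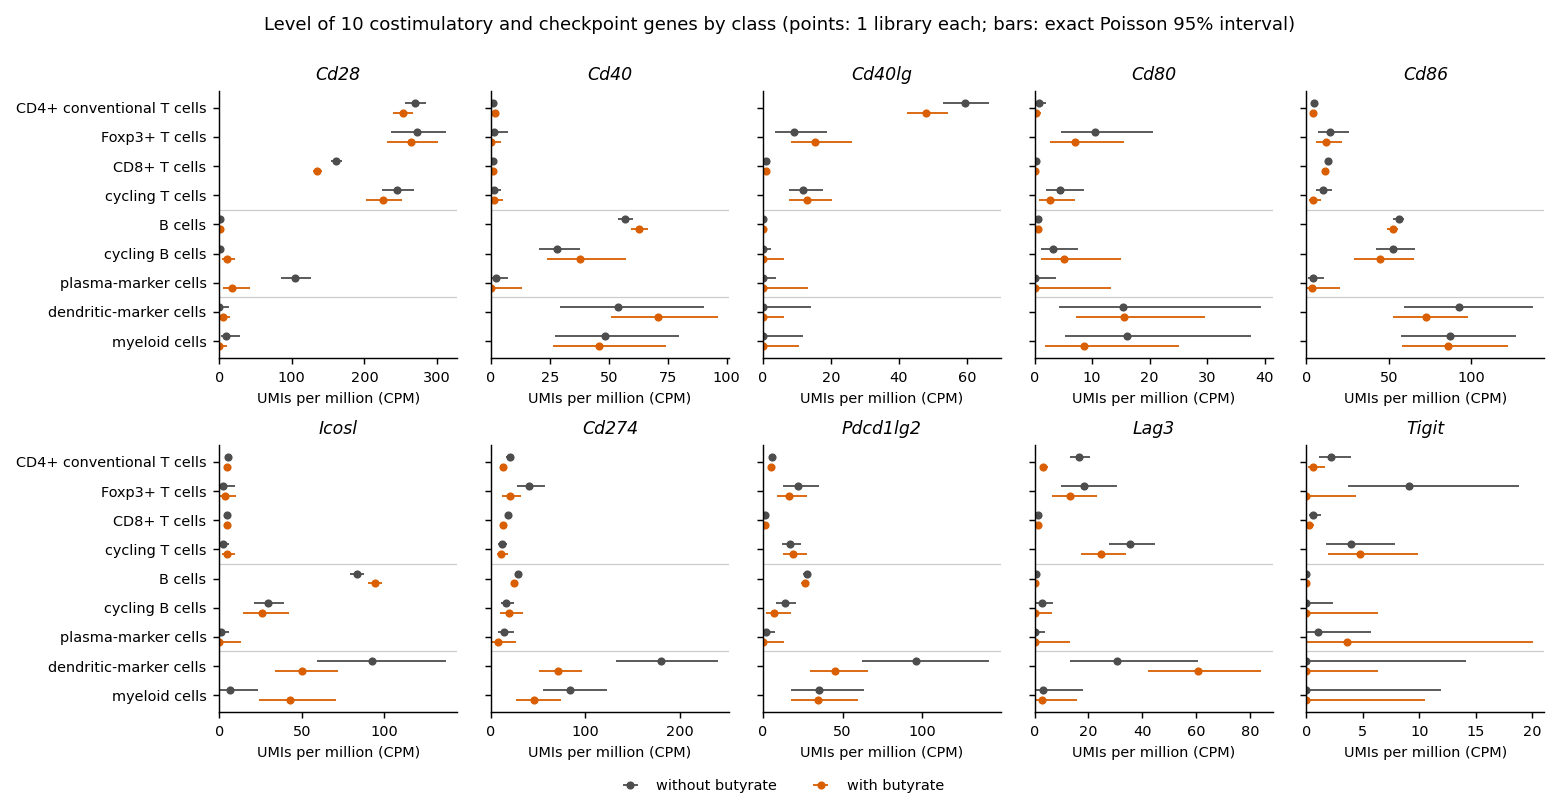
Level of each of the 10 genes in CPM (x axis, a scale of its own for each gene) in 9 classes of cells (y axis), without (gray) and with butyrate (orange), with exact Poisson 95% intervals of counting error as bars. Cd28 and Cd40lg lie in the T cell classes, and Cd28 also in plasma-marker cells. Cd40 and Cd86 lie mainly in B, dendritic-marker and myeloid classes and Icosl in B and dendritic-marker classes. Cd274 lies in every class, with its highest level in dendritic-marker cells.

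The receptors and ligands divided between the partner cells. Of the Cd28 UMIs without butyrate, 0.195% lay in B cells, whereas B cells held 87.5% of the Cd40, 86.3% of the Icosl and 70.3% of the Cd86 UMIs. Cd274 was spread more widely, with 45.3% of its UMIs in B cells and 16.6% in CD8+ T cells. Of the 52478119 UMIs of all genes without butyrate, B cells held 19909459 and CD8+ T cells 11347103, so these shares also reflect class size. Cd80 and Tigit were scarce, with 115 and 59 UMIs over both libraries. Their counts and levels are given by class, and no butyrate ratio was read for them at this depth.

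Cd28 (mm10, chr1:60716800-60773359), the costimulatory receptor of naive T cells, was present in every T cell class. It stood at 270 CPM (95% interval 256 to 285) without and 253 CPM (239 to 267) with butyrate in CD4+ conventional T cells and at 273 and 264 CPM in Foxp3+ T cells, which did not differ beyond their intervals. CD8+ T cells lay lower in both libraries, at 161 CPM (154 to 169) and 135 CPM (129 to 141), and 893 of 1568 and 894 of 1620 cells held a UMI. The log2 ratio in CD8+ T cells was -0.26 (-0.35 to -0.16). The interval lay below 0, as it did for 8.59% of the 9358 genes compared in CD8+ T cells. B cells, which should lack Cd28, had 0.603 and 1.14 CPM, with a UMI in 0.25% and 0.527% of cells.

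Among CD4+ conventional T cells, those with S100a4, a marker of antigen-experienced cells, differed in direction from the rest. Their Cd28 level was 263 CPM (194 to 347) in 23 cells without and 419 CPM (336 to 516) in 29 cells with butyrate. The pseudocount log2 ratio was 0.65. The ratio fell short of the fold when thinned to 2000 UMIs (0.30), without the T cells with at least 3 dendritic marker UMIs (0.31) and under lenient markers (0.45). The other CD4+ T cells stood at 270.0 and 247 CPM. Of the 1040 genes compared in the S100a4+ cells, 8.56% were past the fold in the same direction. The interferon-response list was also lower in the S100a4+ cells with butyrate (4479 and 1990 CPM), and its part in the result was not tested.

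Cd28 was also present in plasma-marker cells, cells with at least 5 Jchain UMIs together with Sdc1 or Tnfrsf17, which secrete antibody. Without butyrate, 102 UMIs lay in 23 of 36 cells (104 CPM, 85.1 to 127), and with butyrate 5 UMIs lay in 1 of 10 cells (18.0 CPM, 5.85 to 42.1). This was above the level in noncycling B cells in both libraries. Cycling B cells had 0.651 CPM (0.0165 to 3.63) without and 10.3 CPM (3.77 to 22.4) with butyrate, and the latter interval overlapped that of plasma-marker cells. Of the plasma-marker cells, 22 of 36 and 7 of 10 held Mki67. T cell RNA was low in these cells: their summed T cell list was 76.8 and 75.7 CPM and Cd3e had 5 UMIs and 1 UMI. The signal differed with the heavy chain of the cell in the library without butyrate. There Cd28 was found in 13 of 14 cells led by Ighg2c (52 UMIs), in 4 of 4 cells led by Ighg2b (40 UMIs) and in 3 of 7 led by Ighg1 (6 UMIs), but in 2 of 9 led by Ighm (3 UMIs). The Ighg2b cell with the most, 19 UMIs, held 4 Cd3e UMIs as well, and the next, with 16, held 0. With butyrate, 0 of 6 Ighm cells held Cd28, its 5 UMIs lay in 1 of 2 Igha cells, the 1 Ighg2b cell and the 1 Ighg1 cell held 0, and no cell was led by Ighg2c. The pseudocount log2 ratio of the class was -2.03. It was -0.40 when each cell was thinned to 2000 UMIs and -3.25 without the highest cell of each library. Of 1905 genes compared, 12.7% were past the fold in that direction. The heavy chains differed between the libraries along with Cd28.

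**Figure D2:**
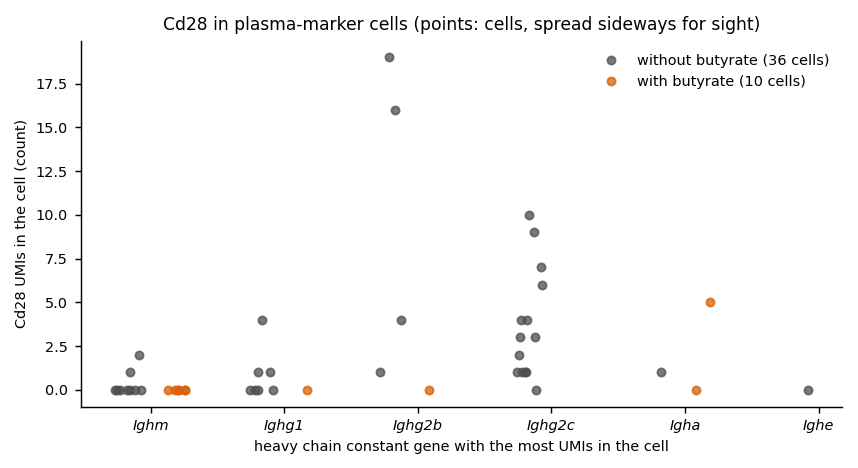
Cd28 UMIs (y axis) in each plasma-marker cell, by the heavy chain constant gene with the most UMIs in that cell (x axis), without (gray, 36 cells) and with butyrate (orange, 10 cells); points are cells. The cells with 5 or more UMIs were led by Ighg2b or Ighg2c without butyrate and by Igha with butyrate, and the Ighm cells of both libraries lay at 0 to 2.

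Cd40lg (chrX:57212143-57224042), the CD40 ligand through which CD4+ T cells help B cells, was higher in CD4+ conventional T cells than in the other T cell classes named here, beyond the counting intervals. It stood at 59.5 CPM (53.0 to 66.7) without and 48.1 CPM (42.3 to 54.4) with butyrate in CD4+ conventional T cells, with a UMI in 26.3% and 23.3% of cells. The T cells with neither or both of Cd4 and Cd8a had 33.0 CPM (28.5 to 38.0) and 33.2 CPM (28.3 to 38.6). This class also took any T cells with both Foxp3 and Cd8a. Unclassified cells had 21.4 and 33.6 CPM. These groups held 30.8% and 14.8% of all Cd40lg UMIs without butyrate. In the unclassified cells with butyrate, 60 of the 112 Cd40lg UMIs lay in 1 cell. Levels in CD8+ T cells were 0.881 and 0.812 CPM and in B cells 0.0502 and 0.149 CPM. Foxp3+ T cells had 9.13 CPM (3.67 to 18.8) and 15.4 CPM (8.20 to 26.3), so that regulatory cells lay below the conventional CD4+ T cells in both libraries. The ratio in CD4+ conventional T cells was -0.31 (-0.56 to -0.06), and 7.73% of 8283 genes had an interval wholly below 0 there.

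The Cd40lg ratio differed between strata of CD4+ conventional T cells. This split was made after the data were seen, and the difference between strata was not tested. Cells were divided by the UMIs of 18 interferon-response genes after thinning to 2000 UMIs, with 5 or more called high. In low cells the ratio was -0.56 (-0.86 to -0.27), and in high cells it was 0.31 (-0.18 to 0.79). High cells made up 41.5% of CD4+ conventional T cells without and 17.9% with butyrate.

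Cd40 (chr2:165055627-165072948), the receptor for that ligand, was at 57.0 CPM (53.7 to 60.4) without and 63.0 CPM (59.6 to 66.6) with butyrate in B cells, a ratio of 0.14 (0.03 to 0.26). An interval wholly above 0 was found for 14.6% of 10106 genes in B cells, so this is a common event there. Cycling B cells lay lower in both libraries, at 28.0 CPM (20.3 to 37.7) and 37.7 CPM (23.6 to 57.1). Dendritic-marker cells (53.8 and 70.9 CPM) and myeloid cells (48.4 and 45.7 CPM) did not differ from B cells beyond their intervals. T cells stood between 0.664 and 1.51 CPM in the CD4+ conventional and CD8+ classes.

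Icosl (chr10:78069302-78083913), the ligand of ICOS, stood in B cells at 83.5 CPM (79.5 to 87.6) without and 94.2 CPM (90.0 to 98.5) with butyrate. A UMI was found in 31.6% and 36.6% of B cells, against 2.61% and 3.89% of CD8+ T cells. The ratio in B cells was 0.17 (0.08 to 0.27), and 14.6% of the 10106 genes compared there had an interval wholly above 0. Cycling B cells had 29.3 CPM (21.4 to 39.2) and 25.7 CPM (14.4 to 42.4), below the noncycling B cells in both libraries. An Icosl UMI was found in 33.3% and 26.1% of cycling B cells, which held more UMIs per cell. In dendritic-marker cells the direction was the opposite, with 92.3 CPM (59.1 to 137) without and 50.1 CPM (33.6 to 72.0) with butyrate. Myeloid cells had 2 UMIs in 36 cells and 15 UMIs in 5 of 29 cells, too few to compare under the 50 UMI minimum, and their summed dendritic list was 168 and 283 CPM.

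Cd86 (chr16:36603869-36666081), a ligand of CD28 and CTLA-4, was found in B cells at 55.9 CPM (52.7 to 59.3) and 52.2 CPM (49.1 to 55.4) and in cycling B cells at 52.7 and 44.6 CPM. The difference in CPM between cycling and other B cells lay within the counting intervals, unlike that of Icosl. A Cd86 UMI was found in 42.7% and 43.5% of cycling B cells against 20.9% and 21.2% of other B cells. Myeloid cells (87.1 and 85.7 CPM) and dendritic-marker cells (92.3 and 72.6 CPM) had the highest levels, and their intervals overlapped each other. Cd80 (chr16:38455561-38496335), the other ligand of the pair, had 15.4 and 15.6 CPM in dendritic-marker cells, 16.1 and 8.57 CPM in myeloid cells and 0.553 and 0.595 CPM in B cells. Foxp3+ T cells held 8 and 6 Cd80 UMIs (10.4 and 7.11 CPM), whereas the far more numerous CD8+ T cells held 3 and 1.

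Cd86 was also found at a low level in CD8+ T cells. It was 13.04 CPM (11.0 to 15.3) without and 11.2 CPM (9.51 to 13.2) with butyrate, with a UMI in 8.10% and 7.96% of cells. This was 23.3% and 21.5% of the B cell level, while Cd40 reached 1.39% and 1.05% of its own. CD4+ conventional T cells had 4.58 and 3.79 CPM, so the CD8+ level was the higher of these in both libraries beyond the counting intervals. Foxp3+ T cells had a like level, at 14.3 CPM (7.16 to 25.7) and 11.8 CPM (5.68 to 21.8). Cycling T cells had 9.96 and 4.10 CPM, and the T cells with neither or both of Cd4 and Cd8a 9.23 and 5.37 CPM. Cd86 was also unevenly spread within CD8+ T cells. In interferon-response high cells it stood at 18.4 CPM (14.5 to 23.1) without and 19.4 CPM (13.6 to 26.9) with butyrate, and in low cells at 10.1 and 9.92 CPM, a log2 ratio of high over low of 0.87 (0.39 to 1.36) and 0.97 (0.38 to 1.52). Within low cells and within high cells the ratios with over without butyrate were -0.02 and 0.07.

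The 2 ligands of PD-1 are neighbors. In mm10, Cd274 lies at chr19:29367455-29388095 and Pdcd1lg2 at chr19:29410919-29471161, both on the plus strand with 22823 bases between them. On the opposite strand they overlap AC119228.1 and A930007I19Rik, and whether counting used the strand is not given in the sources used here. The 250 bases before each start are shown, because these adjacent genes were spread over the lymphocyte classes in unlike ways. They come from RefSeq (GRCm38.p6, plus strand), at chr19:29367188-29367437 for Cd274 and chr19:29410669-29410918 for Pdcd1lg2, written 5′ to 3′, and capitals mark a match to a loose form of the NF-κB site, GGG and CC with any 5 bases between.
Cd274: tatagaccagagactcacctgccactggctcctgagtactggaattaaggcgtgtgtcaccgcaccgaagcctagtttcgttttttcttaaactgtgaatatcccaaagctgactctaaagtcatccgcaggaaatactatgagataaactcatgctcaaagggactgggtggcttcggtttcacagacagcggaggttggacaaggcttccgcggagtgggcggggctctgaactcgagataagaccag
Pdcd1lg2: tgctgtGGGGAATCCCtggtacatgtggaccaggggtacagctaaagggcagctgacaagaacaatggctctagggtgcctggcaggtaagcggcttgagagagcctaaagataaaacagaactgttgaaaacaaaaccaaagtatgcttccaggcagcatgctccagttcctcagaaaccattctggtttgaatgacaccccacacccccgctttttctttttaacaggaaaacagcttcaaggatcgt
From 250 bases before to 50 bases after the start, on both strands, Pdcd1lg2 held 1 match to this form, GGGGAATCCC, beginning at -244, and Cd274 held 0, with 50.8% of 32851 mouse promoters holding at least 1. The interferon-stimulated response element, searched as GAAA and GAAA with any 2 bases between, and the GAS element TTCNNNGAA had 0 matches in both windows. Of all promoters, 3.44% and 8.30% held at least 1 match to these elements. Each of the 3 motifs was searched by these letters only, and no match speaks of this window alone. RefSeq promoters were at hand for 5 of the 10 genes.

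Cd274 (PD-L1) was found in all of the larger classes. It stood at 28.3 CPM (26.0 to 30.7) without and 24.4 CPM (22.3 to 26.7) with butyrate in B cells, at 19.9 CPM (16.2 to 24.2) and 13.1 CPM (10.2 to 16.5) in CD4+ conventional T cells and at 18.2 CPM (15.8 to 20.8) and 12.8 CPM (10.9 to 14.8) in CD8+ T cells. Foxp3+ T cells had 40.4 CPM (27.5 to 57.4) and 20.1 CPM (11.7 to 32.2), from 31 and 17 UMIs. Dendritic-marker cells had the highest level, 181 CPM (133 to 240) and 70.9 CPM (50.9 to 96.2), and myeloid cells had 83.9 and 45.7 CPM. The library with butyrate was thus the lower in each of these 6 classes, and in cycling B cells it was the higher, at 18.9 against 16.3 CPM.

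The ratio of Cd274 was -0.61 (-1.07 to -0.15) in CD4+ conventional T cells, -0.51 (-0.81 to -0.21) in CD8+ T cells, -0.21 (-0.39 to -0.04) in B cells and -1.35 (-1.99 to -0.72) in dendritic-marker cells. Intervals wholly below 0 were found for 7.73%, 8.59%, 6.77% and 12.3% of all genes compared in these classes. With the pseudocount, among classes with at least 50 Cd274 UMIs, only the dendritic-marker cells passed the fold, at -1.24. There 12.4% of 2221 genes did so in that direction. Foxp3+ T cells, at -0.74, and myeloid cells, at -0.75, had fewer than 50 UMIs and were not compared. In CD4+ conventional T cells 15 of the 100 UMIs without butyrate lay in 1 cell that also held 38 UMIs of dendritic markers, and without such cells the pseudocount ratio went from -0.37 to -0.19. In CD8+ T cells it went from -0.31 to -0.25.

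The interferon-response list was also lower with butyrate in the lymphocyte classes. Its sum was 2819 CPM without and 1409 CPM with butyrate in CD4+ conventional T cells, 2179 and 1154 CPM in CD8+ T cells and 1416 and 833 CPM in B cells. It was 2231 and 2123 CPM in dendritic-marker cells, whose makeup differed between the libraries as described below. The part of this list in the Cd274 ratios was not tested. In CD8+ T cells Cd274 was higher in interferon-response high cells of both libraries, at 25.4 CPM (20.7 to 30.9) against 14.04 CPM in low cells without butyrate, and at 20.5 CPM (14.5 to 28.1) against 11.5 CPM with it. The log2 ratios of high over low were 0.86 (0.45 to 1.27) and 0.84 (0.28 to 1.37). Within the strata of CD8+ T cells the butyrate ratios were -0.31 (-0.89 to 0.24) in high and -0.29 (-0.67 to 0.09) in low cells, smaller than -0.51 over all CD8+ T cells. High cells made up 36.7% of CD8+ T cells without and 14.1% with butyrate. In CD4+ conventional T cells the low stratum had -0.67 (-1.25 to -0.09) and the high stratum -0.15 (-1.03 to 0.67).

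**Figure D3:**
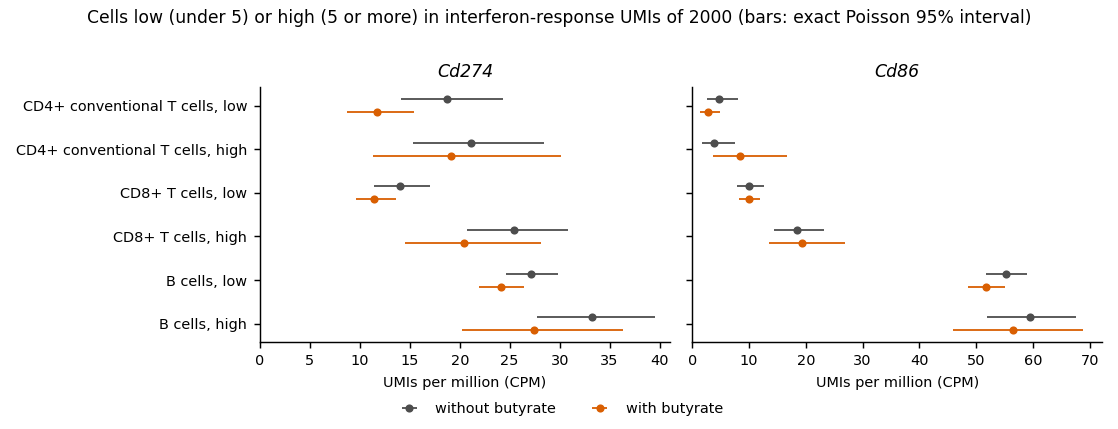
Cd274 (left) and Cd86 (right) in CPM (x axis) in cells low and high in interferon-response UMIs (y axis), without (gray) and with butyrate (orange); bars are exact Poisson 95% intervals. In CD8+ T cells both genes lie higher in the high cells of either library, at 18.4 to 25.4 CPM against 9.92 to 14.04 CPM, and in B cells the strata overlap.

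Pdcd1lg2 (PD-L2) was spread less evenly over the lymphocyte classes. In B cells it stood at 27.6 CPM (25.4 to 30.03) and 26.2 CPM (24.0 to 28.5), but CD8+ T cells had only 1.32 and 1.62 CPM, or 4.79% and 6.201% of the B cell level, where Cd274 reached 64.2% and 52.3%. Foxp3+ T cells (22.2 and 16.6 CPM) and cycling T cells (16.9 and 19.1 CPM) were the main T cell classes with PD-L2. The 10 and 14 CD4+ T cells with both Cxcr5 and Pdcd1, markers of follicular helper T cells, held 6 and 7 UMIs (73.6 CPM, 27.0 to 160, and 54.4 CPM, 21.9 to 112). The butyrate ratio was -0.08 (-0.25 to 0.10) in B cells, and -1.10 (-1.95 to -0.24) in dendritic-marker cells, which went from 96.1 to 45.0 CPM.

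The dendritic-marker cells were not of 1 kind, and their makeup differed. Cells with Fscn1 or Ccl22, genes of mature migratory dendritic cells, numbered 19 without and 28 with butyrate, and cells with Siglech, a marker of plasmacytoid dendritic cells, numbered 4 and 14. Cd274 and Pdcd1lg2 had 0 UMIs in the Siglech+ cells of either library. Within the Fscn1+ or Ccl22+ cells Cd274 was 253 CPM (186 to 336) without and 139 CPM (98.9 to 190) with butyrate, a ratio of -0.86 (-1.51 to -0.22), against -1.35 over the whole class. Pdcd1lg2 there was 134 and 92.7 CPM, with a ratio of -0.54 (-1.39 to 0.32), and Icosl was 118 and 89.2 CPM, with a ratio of -0.41 (-1.29 to 0.49). Cd40 lay higher with butyrate, from fewer than 50 UMIs in all, with 11 UMIs in 6 of 19 cells (59.1 CPM) and 38 UMIs in 17 of 28 cells (135.5 CPM), a ratio of 1.20 (0.20 to 2.31). Cd80 (10.8 and 17.8 CPM) and Lag3 (5.38 and 14.3 CPM) had at most 7 UMIs each over both libraries there. Cd86 stood at 96.8 and 57.1 CPM, with a ratio of -0.76 (-1.83 to 0.29). The intervals for Pdcd1lg2, Icosl and Cd86 thus held 0. All intervals in this subset reflect counting error alone, in 19 and 28 cells of 1 library each, and the subset was added after the data were seen. None of these ratios was tested.

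**Figure D4:**
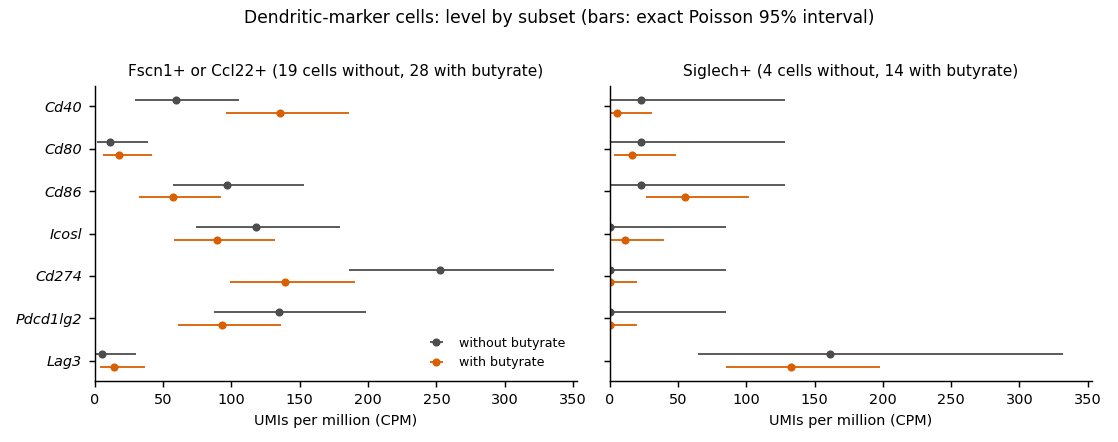
Level in CPM (x axis) of 7 of the genes (y axis) in dendritic-marker cells with Fscn1 or Ccl22 (left) and with Siglech (right), without (gray) and with butyrate (orange); bars are exact Poisson 95% intervals. In the left panel Cd274 is at 253 and 139 CPM and Cd40 at 59.1 and 135.5 CPM, and in the right panel Lag3 is at 161 and 133 CPM.

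Lag3 (chr6:124904361-124911705), an inhibitory receptor of activated T cells, was scarce outside a few classes. Cycling T cells had 35.4 CPM (27.6 to 44.6) without and 24.6 CPM (17.2 to 34.1) with butyrate, with a UMI in 27.2% and 17.1% of cells, Foxp3+ T cells had 18.3 and 13.03 CPM and CD8+ T cells 1.41 and 1.25 CPM. CD4+ T cells with Cxcr5 and Pdcd1 had 147 CPM (76.0 to 257) and 62.2 CPM (26.8 to 123) from 12 and 8 UMIs. Siglech+ dendritic cells were high as well, with 7 UMIs in 3 of 4 cells (161 CPM) and 24 UMIs in 10 of 14 cells (133 CPM). The whole dendritic-marker class had 30.8 CPM (13.3 to 60.6) and 60.5 CPM (42.2 to 84.2), and the library with more Siglech+ cells was the one with the higher level.

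In CD4+ conventional T cells Lag3 stood at 16.5 CPM (13.2 to 20.5) without and 3.22 CPM (1.87 to 5.15) with butyrate. The pseudocount ratio was -1.005, and this value rested in large part on 1 cell. Of its 83 UMIs without butyrate, 44 lay in 1 S100a4+ cell of 31048 UMIs that also held 28 Fscn1 and 7 Ccl22 UMIs. Without the highest cell of each library the ratio was -0.53, and without the T cells with at least 3 dendritic marker UMIs it was -0.38, short of the fold. In the S100a4+ cells the ratio of -3.20 became 0.77 without them, and their summed dendritic list was 477 CPM without and 4.76 CPM with butyrate.

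Tigit (chr16:43648867-43664146), an inhibitory receptor of regulatory and follicular helper T cells, had 39 UMIs without and 20 with butyrate in all cells. Foxp3+ T cells held 7 UMIs in 6 of 148 cells (9.13 CPM, 3.67 to 18.8) without butyrate and 0 in 145 cells with it, which allows up to 3.55 CPM. CD4+ T cells with Cxcr5 and Pdcd1 held 3 UMIs in 10 cells and 2 UMIs in 14 cells. B cells had 0 UMIs, which allows up to 0.151 and 0.149 CPM. Of the 10 Foxp3+ T cells with Lag3 without butyrate, 4 also held Tigit.

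**Figure D5:**
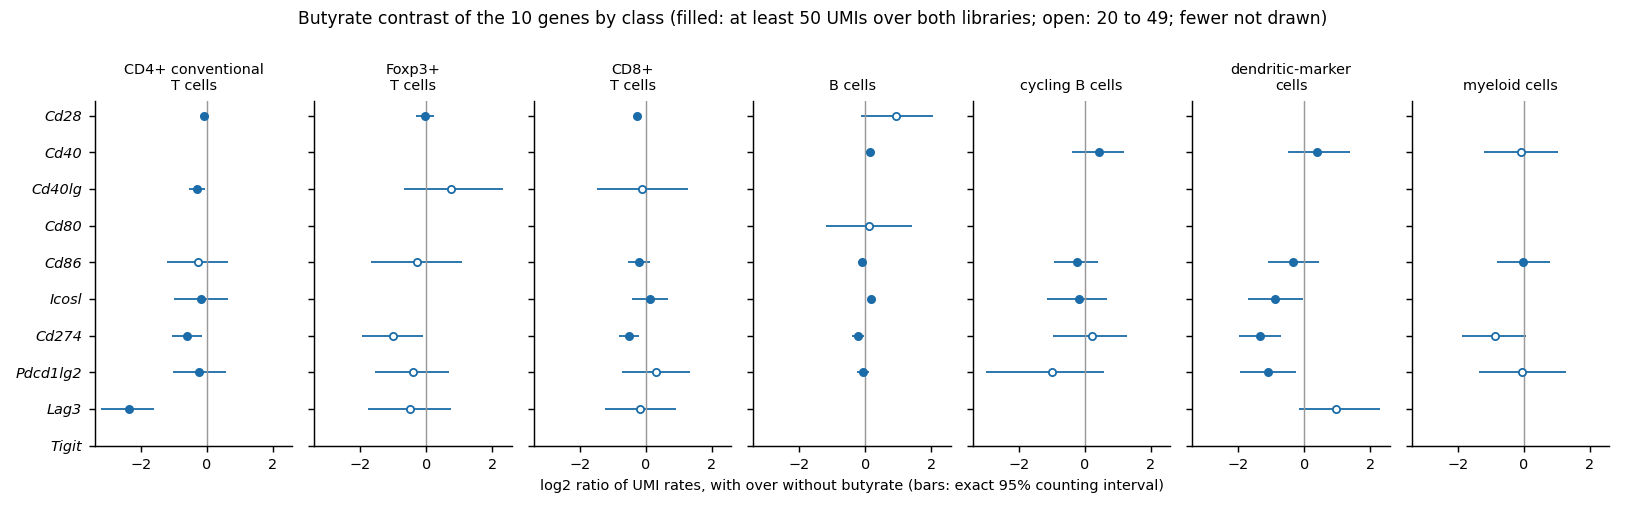
Log2 ratio of UMI rates with over without butyrate (x axis) for each of the 10 genes (y axis) in 7 classes; bars are exact 95% counting intervals, filled points have at least 50 UMIs over both libraries, open points 20 to 49, and fewer are not drawn. Cd274 lies below 0 in every class but cycling B cells, and the filled points of B cells lie between -0.21 and 0.17.

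Few of the 10 genes were past the fold. In CD4+ conventional T cells 1 of 6 members with enough UMIs was, Lag3, lower with butyrate, against 1.07% of all 8283 genes in either direction. Its ratio rested in part on the cell described above, which held 44 of its 83 UMIs without butyrate. None of the members was past it in Foxp3+ T cells (1 compared, 7.97% of all genes past the fold), CD8+ T cells (4 compared, 0.481%), B cells (5 compared, 0.317%), cycling B cells (3 compared, 10.2%) or myeloid cells (1 compared, 28.1%). The median ratio of the members was -0.18 in CD4+ conventional T cells, -0.18 in CD8+ T cells and -0.06 in B cells, beside medians over all genes compared of 0.00349, 0.00540 and 0.0239. In the smaller dendritic-marker class, where 24% of genes were past the fold, Cd274, Pdcd1lg2 and Icosl were lower and Cd86 and Cd40 stayed short of it.

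A list of 35 further genes of these pathways, receptors, ligands and their TRAF adaptors, gave 25 genes with enough UMIs in CD4+ conventional T cells, 25 in CD8+ T cells, 18 in Foxp3+ T cells and 18 in B cells, and 0 were past the fold in these 4 classes. The median ratio of the list was -0.13 in CD4+ conventional, -0.08 in Foxp3+ and -0.007 in CD8+ T cells and 0.0008 in B cells. Sh2d1a, the SAP adaptor of SLAM receptors, stood at 125 and 100.3 CPM in CD4+ conventional T cells. In Foxp3+ T cells the inhibitory receptor Ctla4 was at 484 CPM without and 348 CPM with butyrate, a pseudocount ratio of -0.46, and the costimulatory receptors Tnfrsf4 (OX40) and Tnfrsf18 (GITR) were at 502 and 425 CPM and at 336 and 266 CPM. Icos, the receptor of Icosl, was at 193 and 160 CPM in these cells. In B cells the inhibitory receptor Btla stood at 122 and 128 CPM. In cycling B cells 2 of 7 genes were higher with butyrate, the homophilic receptors Slamf1 (22.8 and 63.4 CPM) and Slamf6 (89.9 and 132 CPM), where 4.73% of all genes were past the fold in that direction. Among the 46 cells with butyrate, the highest cell for each gene held 14 of 37 Slamf1 UMIs and 14 of 77 Slamf6 UMIs. Whether these genes stay past the fold without such cells was not tested. In myeloid cells 1 of 2 was lower, Lgals9, which encodes galectin-9 (165 and 94.2 CPM), where 17.5% of all genes were.

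The genes whose levels were most like those of each member were found by Pearson correlation of log2 levels over 14 points, 7 classes with at least 30 cells in each of the 2 libraries, among 3824 genes. The points share libraries and are a description. Cd28 was most like Cd247 (r = 0.996), which encodes the zeta chain of the T cell receptor complex, and Trac (0.988). Cd40 was most like Gm31243 (0.999), Cyp4f18 (0.997) and H2-Eb2 (0.997), an MHC class II gene. Icosl was most like Il4i1 (0.993), Lag3 like Ebp (0.979), S100a10 (0.971) and Batf (0.960), a transcription factor of activated lymphocytes, and Pdcd1lg2 like Samsn1, Tgfb1 (both 0.940) and Cd200 (0.937). Cd274 was less closely matched, to AC149090.1 and Herc4 (both 0.930) and the MHC class I gene H2-T23 (0.915), and Pdcd1lg2, its neighbor, reached 0.488. The 7 classes were T and B cell classes, without dendritic-marker and myeloid cells. In dendritic-marker cells both genes were high, Cd274 at 181 and 70.9 CPM and Pdcd1lg2 at 96.1 and 45.0 CPM.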

How the data were processed

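The authors sequenced 3′ droplet libraries of mediastinal lymph node cells and deposited raw UMI counts per gene and cell, without normalization, from Cell Ranger 6.0.1 on mm10 (the submitters' processing notes). The authors' annotation is not given in the sources used here, and gene positions are those of GENCODE for mm10. From the library without and that with butyrate, 186 and 327 cells were left out because mitochondrial UMIs exceeded 10% or fewer than 200 genes were detected. Likely doublets, the top Scrublet scores at a rate of 0.8% for every 1000 cells, took out 739 and 627 more (scanpy 1.11.5).

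Classes were set from marker UMIs: plasma-marker cells had at least 5 Jchain UMIs and Sdc1 or Tnfrsf17, T cells Cd3e with at most 1 Cd79a, B cells at least 2 Cd79a without Cd3e, myeloid cells at least 3 Lyz2 (at most 2 elsewhere), and dendritic-marker cells at least 2 of 8 markers. Counts were summed by class and library and scaled to CPM, with exact Poisson, Clopper-Pearson and conditional binomial 95% intervals. Intervals and limits hold for counting error only, with 3 counts as the limit behind a 0. Libraries held 59176459 and 58381292 UMIs. No test was made. Simulated counts were used to check the code for the ratios.

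The members were given, and they, the 35 pathway genes, the marker, interferon-response and immediate early lists and the rule for named genes were chosen with earlier results of these data known. Named were the 10 members, pathway genes at 100 CPM or more in a class or past the fold, and the 3 genes most like each member with at least 50 CPM in a class. The dendritic list is that of the 8 markers and Zbtb46. Division by interferon-response UMIs and into dendritic subsets was added after the data were seen. The summed B cell marker list is not reported here. Alternatives were other marker thresholds, filters, thinning, pseudocount, UMI minimum, scaling, centering and leaving out the top cell. Software was scipy 1.17.1, matplotlib 3.10.9, pandas 2.3.3 and numpy 2.4.6 under Python 3.11.15.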

Additional observations from a re-analysis of the deposited data

Results flagged for a closer look

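Cd28 moved in opposite directions in different classes. The pseudocount log2 ratio with over without butyrate was 0.65 in S100a4+ CD4+ T cells, against -0.13 in the other CD4+ T cells and -0.24 in CD8+ T cells. It was -0.20 in the T cells with neither or both of Cd4 and Cd8a, and -2.03 in plasma-marker cells. These differences between classes were not tested, and the S100a4+ class held 23 and 29 cells, with a ratio from 0.30 to 0.84 over the alternatives. With the pseudocount, Icosl was higher with butyrate in B cells, at 0.16, and lower in dendritic-marker cells, at -0.77, a difference that was also not tested. Within the Fscn1+ or Ccl22+ dendritic-marker cells its ratio without a pseudocount was -0.41 (-1.29 to 0.49).

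In cells that the marker rules left unclassified, 2 of the genes had a counting interval of the ratio wholly above 0. There Cd40lg had a pseudocount ratio of 0.47 and Lag3 one of 0.38. Other members were found there too, with Cd28 at 168 CPM without and 148 CPM with butyrate. Cd3d was found in 80.2% and 75.7% of these cells. A Cd40lg UMI was found in 9.97% of these cells without and 7.57% with butyrate, and a Lag3 UMI in 1.94% and 1.36%. Without butyrate, 1 cell held 26 of the 45 Lag3 UMIs. With butyrate, 1 cell of 75016 UMIs held 60 of the 112 Cd40lg and 43 of the 55 Lag3 UMIs, and both ratios above 0 rested on it. This cell also held 19 Cd28, 32 Cd3e, 33 Cd4, 1168 Il4, 1085 Il13 and 24 Pdcd1 UMIs. It was left out of the T cells because it also held 2 Cd79a UMIs. With up to 2 Cd79a UMIs allowed in T cells, a setting added after the data were seen, this cell, which had 1 Mki67 UMI, joined the cycling T cells, and the ratios there went from 0.07 to 1.42 for Cd40lg and from -0.39 to 0.37 for Lag3.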

How the results depend on the processing

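No paired analysis was possible because each condition has 1 library. Of 444 values of 37 ratios of members under other settings, 417 moved by less than the counting error, 26 by more, and 1 ratio past the fold changed sign, Lag3 in S100a4+ CD4+ T cells, to 0.77 without the T cells with at least 3 dendritic marker UMIs. Ratios short of the fold or under 50 UMIs also changed sign or reached 0: Cd86 in myeloid cells kept its sign under 7 of 12 alternatives, Cd28 in Foxp3+ T cells and Cd40lg in cycling T cells under 10, and Cd86 in cycling B and dendritic-marker cells, Icosl in CD4+ conventional T cells, Lag3 in cycling T cells and Pdcd1lg2 in B, cycling B and cycling T cells under 11. The ratio of Cd274 kept its sign under all 12 alternatives in CD4+ conventional, CD8+ and Foxp3+ T cells, B cells and dendritic-marker cells, and in myeloid cells under 11, with 0.34 under lenient markers. In CD8+ T cells the pseudocount ratio of Cd274 went from -0.31 to -0.08 when thinned to 2000 UMIs. In plasma-marker cells Cd28 was -0.40 when thinned and -3.25 without the top cell. The causes were not tested.

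Highest levels were ranked among CD4+ conventional, Foxp3+ and CD8+ T cells, B cells, cycling B cells and myeloid cells only. Dendritic-marker, plasma-marker and cycling T cells were not in this ranking. The class with the highest level was the same for 9 of 10 members under lenient markers, 7 under strict markers, 9 when thinned and 8 without the top cell. The count of members past the fold in the main classes, 1, became 0 under lenient markers, thinning and a minimum of 200 UMIs, 2 with a pseudocount of 1, 2 with up to 2 Cd79a UMIs in T cells and 0 without the T cells with dendritic markers, the last 2 added after the data were seen. The number of genes past the fold, of 89 in CD4+ conventional T cells, 302 in Foxp3+ T cells, 45 in CD8+ T cells, 32 in B cells, 463 in cycling B cells and 547 in myeloid cells, depended on the low counts. It became 183, 191, 68, 95 (cycling B cells) and 91 (myeloid cells) when thinned, and 461, 457, 277, 171 (B cells) and 709 (cycling B cells) with a pseudocount of 1. With at least 200 UMIs it was 51 in CD4+ conventional T cells, 26 in Foxp3+ T cells, 74 in cycling B cells and 95 in myeloid cells, and with strict markers 362 in myeloid cells. Scaling without ribosomal, mitochondrial and immunoglobulin genes gave 157 in CD4+ conventional T cells, 118 lower and 39 higher, against 83 and 6.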

Other observations

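Levels also differed with immediate early genes, a mark of recent stimulation or of handling, counted as 12 genes with 10 or more UMIs of 2000. In CD4+ conventional T cells Cd274 stood at 29.7 CPM in the cells with 10 or more and 15.1 CPM in the others without butyrate, a log2 ratio of 0.97 (0.37 to 1.57), and at 23.3 and 10.3 CPM with butyrate, a ratio of 1.17 (0.41 to 1.91). Cd28 was less uneven, with ratios of 0.21 (0.05 to 0.38) and 0.35 (0.17 to 0.53). In B cells Icosl was the higher in the cells with more immediate early UMIs, by 0.44 (0.29 to 0.58) without and 0.15 (0.02 to 0.28) with butyrate, and its butyrate ratio was -0.01 (-0.16 to 0.14) in these cells and 0.28 (0.15 to 0.40) in the others.

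Of the 35 pathway genes in dendritic-marker cells, Traf1, an adaptor of TNF receptors, was at 681 CPM without and 450 CPM with butyrate. Tnfrsf4 (OX40) was at 249.98 and 137 CPM, and Cd200, an inhibitory ligand, at 127 and 118 CPM. Traf1 and Tnfrsf4 were past the fold, as were 12.4% of the 2221 genes compared in that direction. Without butyrate 1 cell held 17 of the 65 Tnfrsf4 UMIs. The makeup of the class also differed, with 4 Siglech+ cells without and 14 with butyrate, and its part was not tested.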
